A study of Rattus norvegicus with 10 samples.

Results

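The genes described here are 42 rat genes that cells need to copy their DNA and divide, 19 of DNA replication and 23 of mitosis. They were taken by symbol from a deposited table of 12555 genes, in which each of the 42 had 1 row, and all 42 passed the filter on low counts. RNA was sequenced from 10 wild-type rat liver libraries: 5 from the normal diet group (normal 1 to 5) and 5 from the group of a diet cut by 30% in calories throughout gestation (restricted 1 to 5). The labels of the restricted libraries name the diet and the series title names small-for-gestational-age young, so the diet is read here as that of the dams, which the labels do not state. Age, sex and litter were not stated, and nothing in the labels says that libraries of a group came from separate animals. The p-values below therefore measure the spread between these libraries.

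A dividing cell first copies its genome and then separates the copies. In the first step the MCM helicase is loaded on DNA and opened by its partners, a sliding clamp holds the polymerases at the fork, and enzymes of nucleotide synthesis supply the building blocks. In the second step cyclin-dependent kinase 1 with its cyclins starts mitosis, the Aurora and Polo kinases and the spindle checkpoint control chromosome attachment, and the anaphase-promoting complex ends it. Genes of the first step are known to be switched on by E2F factors before DNA synthesis, and genes of the second step later, through promoter elements called CHR (cell cycle genes homology region) and CCAAT boxes. Adult liver cells rarely divide, while the liver of a growing rat still holds dividing cells. In whole-tissue RNA, fewer dividing cells and less of these RNAs per dividing cell cannot be told apart.

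The promoters of the replication and mitosis genes were searched for the letters of these elements, which the choice of genes did not use. RefSeq promoter windows of the rat build GRCr8, from 250 bases before to 50 bases after the gene start, were matched by symbol for 35 of the 42 genes, 16 of replication and 19 of mitosis. Those without one were Mcm4, Cdc6, Rrm2, Ccna2, Ube2c, Aurkb and Tpx2. An E2F-type motif, any of TTTCCCGC, TTTGGCGC, TTTCGCGC, TTTGCCGC, TTCCCGCC or TTGGCGGG on either strand, was present in 13 of 16 replication promoters, or 81.3% (exact 95% binomial interval 54.4 to 96.0%). It was present in 2 of 19 mitosis promoters, or 10.5% (1.3 to 33.1%), and in 5.49% of 21851 promoters of protein-coding genes. The contrast depended on the letters: a shorter core of 6 letters was in 93.8% (69.8 to 99.8%) of replication promoters and 68.4% (43.4 to 87.4%) of mitosis promoters, beside 45.7% of all. The CHR letters, TTTGAA or TTCGAA on either strand, were present in 13 of 19 mitosis promoters, or 68.4% (43.4 to 87.4%). They were present in 4 of 16 replication promoters, or 25.0% (7.27 to 52.4%), and in 18.5% of all those promoters. The intervals of the gene sets overlapped, but overlap is not a test of their difference, and none was run. CCAAT was in 84.2% of mitosis promoters (60.4 to 96.6%) and 68.8% of replication promoters (41.3 to 89.0%), again with overlapping intervals, beside 38.0% of all. Some E2F-type motifs overlap each other by their letters, and the reverse of CCAAT overlaps TTGGCGGG. A letter match describes the window and does not show that a factor binds there.

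**Figure D1:**
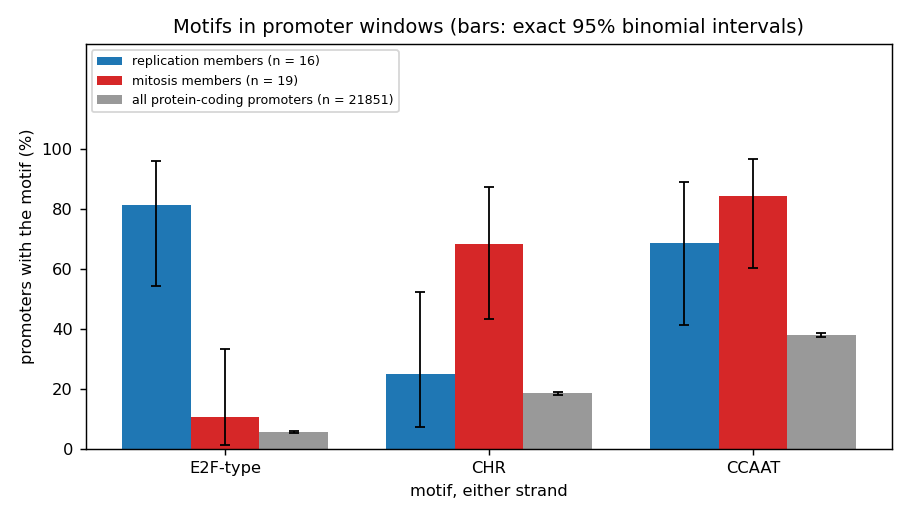
Share of promoter windows (%) that hold an E2F-type motif, a CHR or a CCAAT box, for replication genes, mitosis genes and all protein-coding genes, with exact 95% binomial intervals. E2F-type motifs were in 81.3% of replication windows and 10.5% of mitosis windows, and CHR in 25.0% and 68.4%.

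Windows of 3 replication genes and 3 mitosis genes are printed to show how these elements are arranged. The capitals mark E2F-type, CHR and CCAAT letters on either strand, and each sequence reads 5′ to 3′ toward the gene. Tyms lies at chr9:120776034-120776333, minus strand, with an E2F-type motif that begins 37 bases before the start. Mcm5 lies at chr19:13488563-13488862, plus strand, with E2F-type motifs that begin 213, 209 and 8 bases before the start and 3 CCAAT boxes between them. Rrm1 lies at chr1:166235654-166235953, plus strand, and holds all 3 elements. Cdk1 lies at chr20:19265043-19265342, plus strand, with CHR letters that begin 72 and 16 bases before the start and an E2F-type motif. Cdc20 lies at chr5:137255750-137256049, minus strand, with a CHR that begins 51 bases before the start, between its CCAAT boxes. Top2a lies at chr10:84473044-84473343, minus strand, with 2 CHR and 4 CCAAT matches.
Tyms: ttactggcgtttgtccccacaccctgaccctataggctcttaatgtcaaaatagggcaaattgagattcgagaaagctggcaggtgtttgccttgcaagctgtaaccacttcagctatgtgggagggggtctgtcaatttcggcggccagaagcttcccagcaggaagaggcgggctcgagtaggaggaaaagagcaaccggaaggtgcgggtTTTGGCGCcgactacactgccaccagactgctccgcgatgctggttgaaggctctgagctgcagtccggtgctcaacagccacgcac
Mcm5: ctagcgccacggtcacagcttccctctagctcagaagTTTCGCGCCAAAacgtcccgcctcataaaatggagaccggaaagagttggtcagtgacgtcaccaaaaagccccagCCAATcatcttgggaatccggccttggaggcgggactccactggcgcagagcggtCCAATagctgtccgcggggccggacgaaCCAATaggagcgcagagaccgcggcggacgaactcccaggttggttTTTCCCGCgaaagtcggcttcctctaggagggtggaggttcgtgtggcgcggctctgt
Rrm1: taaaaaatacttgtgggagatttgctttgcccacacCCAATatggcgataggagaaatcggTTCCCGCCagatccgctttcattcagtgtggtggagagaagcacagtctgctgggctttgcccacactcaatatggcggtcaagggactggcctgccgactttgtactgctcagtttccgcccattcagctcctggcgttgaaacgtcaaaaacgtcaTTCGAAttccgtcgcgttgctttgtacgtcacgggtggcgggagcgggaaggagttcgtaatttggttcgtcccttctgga
Cdk1: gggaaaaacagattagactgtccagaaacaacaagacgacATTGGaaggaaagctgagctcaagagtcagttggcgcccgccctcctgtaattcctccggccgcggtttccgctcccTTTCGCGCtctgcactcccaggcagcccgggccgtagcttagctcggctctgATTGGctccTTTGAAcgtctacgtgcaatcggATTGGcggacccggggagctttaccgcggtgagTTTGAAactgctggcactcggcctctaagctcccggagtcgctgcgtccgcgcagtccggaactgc
Cdc20: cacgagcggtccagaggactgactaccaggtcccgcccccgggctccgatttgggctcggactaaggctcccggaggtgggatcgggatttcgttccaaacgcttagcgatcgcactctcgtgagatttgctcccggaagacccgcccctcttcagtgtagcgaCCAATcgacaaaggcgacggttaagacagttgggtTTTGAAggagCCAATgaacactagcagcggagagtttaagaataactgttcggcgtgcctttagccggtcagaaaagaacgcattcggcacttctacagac
Top2a: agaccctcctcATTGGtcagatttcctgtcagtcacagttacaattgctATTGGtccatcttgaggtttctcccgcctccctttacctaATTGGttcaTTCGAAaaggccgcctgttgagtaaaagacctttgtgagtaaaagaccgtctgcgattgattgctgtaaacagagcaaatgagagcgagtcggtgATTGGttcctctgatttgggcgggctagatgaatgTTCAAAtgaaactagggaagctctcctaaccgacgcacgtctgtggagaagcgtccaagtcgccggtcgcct

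Total counts ran from 14936156 to 22104957 per library, the highest in restricted 1. The 10 hepatocyte markers, Alb among them, had a summed level of 169356 to 201826 TMM-scaled CPM (counts scaled to library size) in the normal libraries and 153063 to 230101 CPM in the restricted ones. The sum mostly follows Alb and Tf, at 99848.5 and 48958.3 of 170373 CPM in normal 1. Of the 10 markers, 3 had a positive log2 fold change of restricted minus normal. In edgeR 1 was called lower and 0 higher, beside 2.22% of all genes called lower. The labels name liver, hepatocytes and a hepatocyte cell line, whereas the series' design text names liver tissue. RNA of macrophages and endothelium was present in every library, so the material is called liver here. Kdm5d, a Y-linked gene, had 280 to 392 counts in the normal libraries, 309 in restricted 5 and 0 in restricted 1 to 4, where a count of 0 allows up to 0.207 CPM. Presence of Kdm5d RNA thus runs with diet in 9 of 10 libraries, and values of restricted 5 against the normal libraries are given below for that reason.

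Replication and mitosis genes were mostly lower in the restricted group, but few differences passed the test. Of the 42 genes, 39 had a negative log2 fold change of restricted minus normal, with a median of −0.45, whereas 47.7% of the 12367 genes tested were negative, with a median of 0.01. With edgeR and Benjamini-Hochberg adjustment over all genes tested, 2 of 42 passed an adjusted p of 0.05, both lower, and 0 were higher. Among all genes tested 4.09% passed in either direction and 2.22% passed as lower, so the count of 2 is near the background. At an unadjusted p under 0.05, 12 of 42 were lower and 0 higher, beside 9.93% of all genes that were lower at that level. Of the 12367 genes tested, 1256 were higher at that level. The genes that passed were Rrm2 and Tyms, both of nucleotide supply. All 5 restricted libraries lay below all 5 normal libraries for 4 of 42 genes, Rrm2, Rrm1, Tyms and Ube2c, beside 3.44% of all genes tested.

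The 4 genes of nucleotide supply all had negative values, with a median log2 fold change of −0.65. In edgeR 2 of the 4 passed as lower, beside 2.22% of all genes tested. All 4 were lower at an unadjusted p under 0.05, beside 9.93% of all genes. Rrm2 encodes the small subunit of ribonucleotide reductase, which makes deoxyribonucleotides and is produced in the DNA synthesis phase. It had 39.6, 13.0, 16.9, 36.5 and 22.0 CPM in normal 1 to 5 and 9.40, 6.85, 4.56, 2.17 and 9.28 CPM in restricted 1 to 5. Every restricted library was below every normal library, and the normal libraries themselves differed widely. Rrm2 fell 3.93-fold, a log2 fold change of −1.98 ± 0.44 (SE; 95% interval −2.95 to −1.0; adjusted p 0.0381 in edgeR). Restricted 5 alone against the normal libraries gave −1.46 ± 0.75, which did not pass (adjusted p 0.340).

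Tyms, thymidylate synthase, makes the thymidine nucleotide that only DNA uses. It had 20.9, 23.5, 21.7, 15.8 and 19.9 CPM in normal 1 to 5 and 15.3, 15.5, 13.1, 15.4 and 14.8 CPM in restricted 1 to 5. The restricted libraries lay close together, and their highest value was just under that of normal 4. Tyms fell by 0.46 ± 0.11 on the log2 scale (SE; 95% interval −0.70 to −0.21; adjusted p 0.0408 in edgeR). In restricted 5 against the normal libraries it was also −0.46 (± 0.21, adjusted p 0.252). Neither call was firm: with 1 library left out, Rrm2 passed in 3 of 10 fits, without normal 2, restricted 1 or restricted 4, and Tyms in 1, without normal 4. Their adjusted p then reached 0.0895 for Rrm2 without restricted 2 and 0.0973 for Tyms without normal 3, and neither gene passed in limma-voom, with the replicate number as a block, or with Kdm5d as a covariate. Those fits called 2.15%, 1.12% and 0.154% of all genes lower.

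Rrm1, the large subunit of ribonucleotide reductase, had 33.6, 30.9, 25.2, 26.9 and 26.3 CPM in normal 1 to 5 and 24.3, 23.1, 19.1, 11.1 and 21.9 CPM in restricted 1 to 5. The groups did not overlap, but restricted 1 and normal 3 were close, and the log2 fold change of −0.52 ± 0.18 did not pass (adjusted p 0.133). Tk1, thymidine kinase of the salvage pathway, had 49.8, 38.2, 32.1, 45 and 32.3 CPM and then 32.9, 28.3, 20.7, 7.61 and 24.5 CPM. Only restricted 1 of the restricted libraries lay within the normal range, and the log2 fold change was −0.79 ± 0.32 (adjusted p 0.206). Rrm2b, the other small subunit of the reductase, which dividing and resting cells both use and which is not among the 42, had 17.3 ± 2.16 and 16.5 ± 0.384 CPM (SD, n = 5; log2 fold change −0.06 ± 0.10, adjusted p 0.768).

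**Figure D2:**
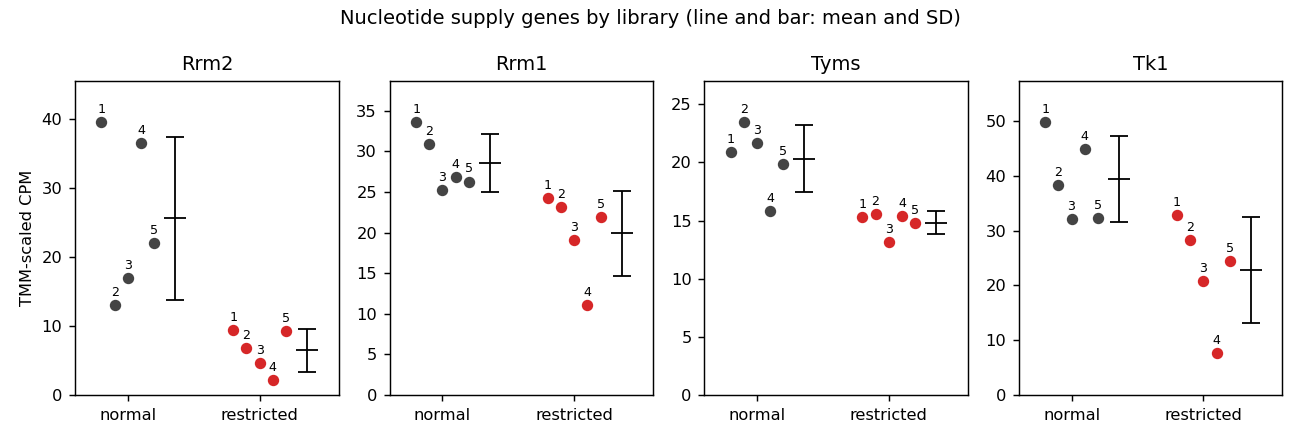
TMM-scaled CPM of Rrm2, Rrm1, Tyms and Tk1 in each library, with the library's number beside its point and the mean and SD (n = 5) beside each group. All restricted points lie below all normal points for Rrm2, Rrm1 and Tyms, and restricted 4 is lowest for Rrm2, Rrm1 and Tk1.

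The 10 genes of the helicase and its loading all had negative values, from −0.54 to −0.01, with a median of −0.26 and 0 past the test (0 also at an unadjusted p under 0.05, in DESeq2 and in limma-voom). Mcm2 to Mcm7 encode the ring of the helicase, and their log2 fold changes ran from −0.54 ± 0.31 in Mcm6 to −0.17 ± 0.18 in Mcm4. Mcm7 had the smallest p of the 10, with 16.4, 15.0, 11.6, 15.9 and 16.6 CPM in the normal libraries and 14.2, 12.7, 15.1, 9.58 and 11.0 CPM in the restricted ones. Its groups overlapped, since normal 3 lay below restricted 1, 2 and 3 (log2 fold change −0.27 ± 0.14, adjusted p 0.316). Mcm2, Mcm3 and Mcm5 were −0.25 ± 0.17, −0.18 ± 0.25 and −0.30 ± 0.33. Cdc6, which helps load the helicase, had 1.01 ± 0.314 and 1.00 ± 0.301 CPM (SD, n = 5) and a log2 fold change of −0.01 ± 0.33 (95% interval −0.73 to 0.72), from only 8 to 33 counts per library. Cdt1, the other loader, and the GINS genes Gins1 and Gins2, whose products join the active helicase, were −0.21 ± 0.35, −0.40 ± 0.44 and −0.45 ± 0.28. Gins1 had 3 counts in restricted 4, the lowest count of any of the 42 genes.

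The 5 fork genes had a median of −0.29, with 0 past the test (1 lower at an unadjusted p under 0.05, 0 in DESeq2 and limma-voom). Prim1, the primase that starts each new strand, had 15.7, 19.4, 11.6, 15.1 and 18.9 CPM in normal 1 to 5 and 14.8, 11.7, 11.0, 12.2 and 12.6 CPM in restricted 1 to 5. Normal 3 lay among the restricted libraries, and the log2 fold change was −0.37 ± 0.14 (adjusted p 0.176). Pcna, the sliding clamp, had 24.1, 26.3, 18.0, 22.5 and 20.9 CPM and then 18.3, 22.7, 18.2, 15.7 and 19.6 CPM, with overlapping groups (−0.24 ± 0.12, adjusted p 0.293). Rfc3 and Rfc4 of the clamp loader were −0.34 ± 0.18 and −0.29 ± 0.20. Pola1, the catalytic subunit of polymerase alpha, was the one replication gene above 0, with 5.75 ± 1.36 and 6.16 ± 1.02 CPM (SD, n = 5; 0.10 ± 0.19, adjusted p 0.801).

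Of the 23 mitosis genes 21 were negative, the median was −0.63 on the log2 scale, and 0 passed the test in edgeR. At an unadjusted p under 0.05, 7 of 23 were lower, beside 9.93% of all genes. DESeq2 called 2 of them lower, Ube2c and Nusap1, and limma-voom 0, where those tools called 4.33% and 2.15% of all genes lower. In the authors' deposited table the same pair, Rrm2 and Tyms were the 4 of 42 genes with an adjusted p under 0.05, and Rrm2 and Ube2c were the 2 that met the authors' rule of p under 0.05 with an absolute log2 fold change above 1. Over the authors' deposited table as a whole, 4.32% of genes were lower by the adjusted p and 1.24% by that rule. The deposited values come from the same 10 libraries, so they are not separate evidence. For Rrm2 the deposited p of 1.53e-07 was close to the p of 1.47e-07 from DESeq2 here.

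CDK1 with its cyclins and the anaphase-promoting complex gave 6 genes, all negative, with a median of −0.65. Cdk1 had 12.7, 10.6, 14.1, 13.5 and 7.41 CPM in normal 1 to 5 and 11.8, 6.15, 6.77, 2.82 and 9.41 CPM in restricted 1 to 5. Restricted 1 lay above normal 2 and normal 5, so the groups overlapped (−0.65 ± 0.32, adjusted p 0.280). Ccnb1, the main mitotic cyclin, had 20.1, 12.5, 21.3, 21.3 and 15.4 CPM and then 21.6, 11.6, 8.29, 2.82 and 11.3 CPM. Restricted 1 was the highest of all 10 libraries and restricted 4 the lowest, and the log2 fold change was −0.69 ± 0.42 (adjusted p 0.383). Ccnb2, a second B-type cyclin, showed the same order, with 14.3 CPM in restricted 1 and 2.49 CPM in restricted 4 (−0.40 ± 0.36, adjusted p 0.565). Ccna2, a cyclin of DNA synthesis and entry into mitosis, and Cdc20, an activator of the complex, were −0.58 ± 0.32 and −0.65 ± 0.38.

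Ube2c, the ubiquitin-conjugating enzyme of the complex, had the largest negative change of the mitosis genes. It had 6.08, 4.96, 4.48, 7.07 and 4.31 CPM in the normal libraries and 3.12, 3.78, 1.31, 0.591 and 3.36 CPM in the restricted ones. The groups did not overlap, and restricted 4 rested on 9 counts. The log2 fold change was −1.13 ± 0.39 (95% interval −1.97 to −0.28; adjusted p 0.131).

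The 7 genes of mitotic kinases and the spindle checkpoint were all negative, with a median of −0.67. Aurkb, the kinase of the chromosomal passenger complex, had 8.70, 6.94, 7.56, 10.9 and 5.26 CPM in the normal libraries and 7.84, 4.53, 2.42, 2.95 and 4.98 CPM in the restricted ones. Only restricted 1 lay within the normal range (−0.78 ± 0.30, adjusted p 0.170), and Aurkb passed as lower without restricted 1 (adjusted p 0.0463). Its partners Cdca8 and Birc5 were −0.67 ± 0.36 and −0.34 ± 0.34, the latter from 4.90 ± 0.941 to 3.85 ± 1.70 CPM (SD, n = 5; adjusted p 0.616). Birc5 was at 0.919 CPM in restricted 4 and at 4.10 to 5.17 CPM in the other restricted libraries, and without restricted 4 its log2 fold change was −0.082. Plk1, which acts throughout mitosis, and Aurka, the kinase of spindle poles, were −0.71 ± 0.36 and −0.69 ± 0.30. Bub1 and Bub1b, of the checkpoint that delays separation, were −0.53 ± 0.29 and −0.63 ± 0.26.

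The 8 spindle and kinetochore genes had a median of −0.48, with 6 negative. Nusap1, which binds spindle microtubules, had 11.6, 7.0, 7.89, 10.2 and 8.63 CPM in the normal libraries and 7.17, 5.12, 4.49, 2.23 and 6.73 CPM in the restricted ones. Restricted 1 was just above normal 2, and the other restricted libraries lay below all normal ones (−0.81 ± 0.26, adjusted p 0.111). Prc1, which bundles the central spindle, Cenpe, a kinetochore motor, and the mitotic kinesins Kif11 and Kif20a were −0.63 ± 0.28, −0.52 ± 0.39, −0.44 ± 0.26 and −0.51 ± 0.46. Tpx2, an activator of Aurka, was −0.34 ± 0.29. Cenpf, of the outer kinetochore, had 11.3 ± 2.40 and 11.3 ± 4.93 CPM (SD, n = 5; 0.00 ± 0.30, 95% interval −0.66 to 0.67, adjusted p 0.997). Kif23, a kinesin of cell separation, was 0.06 ± 0.49, and its range in the restricted libraries, 0.394 to 6.46 CPM, enclosed the normal range.

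The 2 chromosome-associated genes were both negative, with a median of −0.54. Mki67, the proliferation antigen Ki-67 that coats mitotic chromosomes, had 56.1, 43.7, 50.1, 49.9 and 35.0 CPM in normal 1 to 5 and 57.2, 40.2, 26.5, 11.1 and 39.3 CPM in restricted 1 to 5. Restricted 1 was the highest library and restricted 4 the lowest (log2 fold change −0.43 ± 0.35, adjusted p 0.539). Top2a, the topoisomerase that untangles copied chromosomes, had 45.9, 28.8, 29.5, 36.1 and 28 CPM and then 35.3, 21.1, 17.1, 10.1 and 23.4 CPM. Restricted 1 again lay within the normal range and the other 4 below it (−0.65 ± 0.28, adjusted p 0.235).

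**Figure D3:**
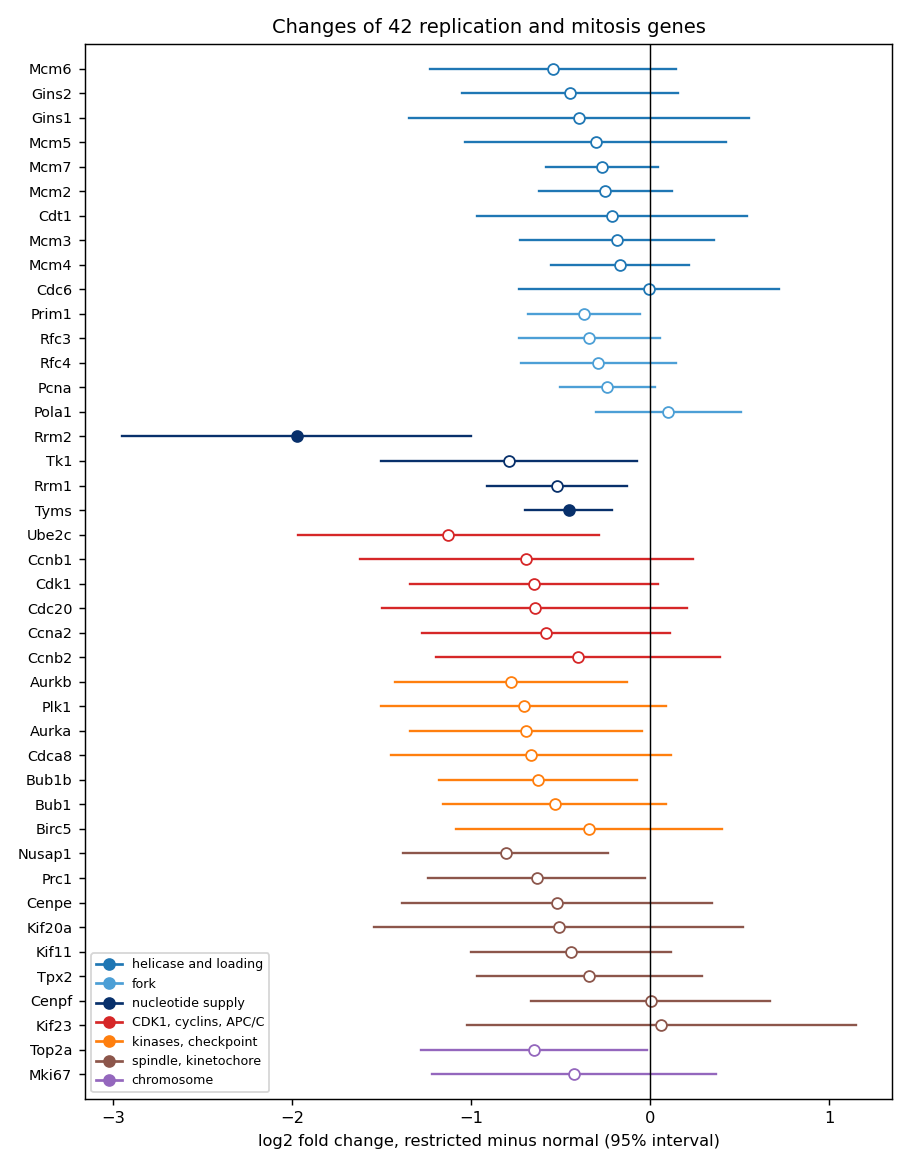
Log2 fold changes of restricted minus normal with 95% intervals for the 42 genes, coloured by role; filled points passed an adjusted p of 0.05 in edgeR. Only Rrm2 (−1.98) and Tyms (−0.46) are filled, and Pola1, Cenpf and Kif23 are the points at or above 0.

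Compared with each other, mitosis genes had the lower median, −0.63 against −0.30 for replication genes, a difference of 0.32. The genes of each set were averaged within a library as mean log2 CPM and given as the difference from the normal mean. Replication genes were at −0.25, −0.22, −0.42, −1.11 and −0.24 in restricted 1 to 5, against −0.21 to 0.20 in the normal libraries. Mitosis genes were at 0.20, −0.42, −0.90, −2.0 and −0.42 in restricted 1 to 5, against −0.34 to 0.25 in the normal libraries. Replication genes were thus lower than in any normal library in each restricted library by a small margin, apart from restricted 4, while mitosis genes ranged from the normal level in restricted 1 to far below it in restricted 4. The replication score of restricted 1 to 5 without the nucleotide genes was −0.17, −0.08, −0.23, −0.91 and −0.12, so that 3 of 5 then fell within the normal range of −0.21 to 0.26.

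The 2 sets did not keep a fixed distance. Replication minus mitosis was −0.44 in restricted 1, 0.20 in restricted 2, 0.48 in restricted 3, 0.89 in restricted 4 and 0.18 in restricted 5. In the normal libraries it was −0.05, 0.40, −0.30, −0.34 and 0.28, a range that holds 2 of the 5 restricted values. The difference between the medians of 0.32 was 0.57 without restricted 1, 0.20 without normal 1, 0.21 without normal 3 and 0.19 without restricted 3. It was 0.33 in restricted 5 against the normal libraries.

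**Figure D4:**
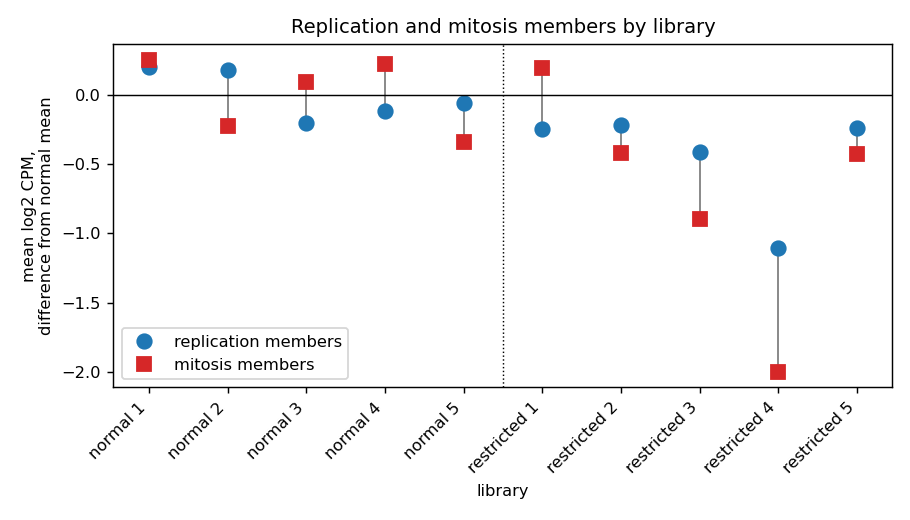
Mean log2 CPM of the 19 replication genes (circles) and 23 mitosis genes (squares) in each library, as the difference from the mean of the normal libraries. Among the restricted libraries mitosis genes range from 0.20 in restricted 1 to −2.0 in restricted 4. Replication genes range from −0.22 in restricted 2 to −1.11 in restricted 4.

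Restricted 4 had the lowest value of all 10 libraries for 35 of 42 genes, 22 of 23 of mitosis and 13 of 19 of replication, whereas it was lowest for 14.9% of all genes tested. It lay below every normal library for all 23 mitosis genes and for 16 of 19 replication genes, beside 26.8% of all genes tested. Restricted 1 was the highest library for 11 of 23 mitosis genes and for 1 of 19 replication genes, beside 7.16% of all genes tested. In restricted 1, 20 of 23 mitosis genes were at or above the normal mean, while 15 of 19 replication genes were below it. In restricted 3 all 23 mitosis genes were below the normal mean, and in restricted 2 and 5 the counts were 22 and 20. Of the 12367 genes tested, 6076, 6248, 6159 and 6224 were below it in restricted 1, 2, 3 and 5. Without restricted 4 the medians were −0.18 for replication and −0.41 for mitosis genes, and Rrm2 was the only gene of the 42 called, where 1.34% of all genes were called lower. The log2 fold changes of 13 of 23 mitosis genes and 9 of 19 replication genes were then smaller by over 1.5 times. Without restricted 1 they were −0.31 and −0.88, and Rrm2 and Aurkb were called, where 1.94% of all genes were called lower. The log2 fold changes of 11 of 23 mitosis genes and 1 of 19 replication genes were then larger by over 1.5 times.

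The spread within the restricted group was wider for mitosis genes than in the normal group. The SD of log2 CPM over the 5 restricted libraries was above that of the normal libraries for all 23 mitosis genes, with medians of 0.77 and 0.30. Of replication genes this held for 13 of 19, with medians of 0.38 and 0.28, and of all genes tested for 66.1%. Without restricted 4 it held for 21 of 23 mitosis genes, 6 of 19 replication genes and 61.2% of all genes tested.

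**Figure D5:**
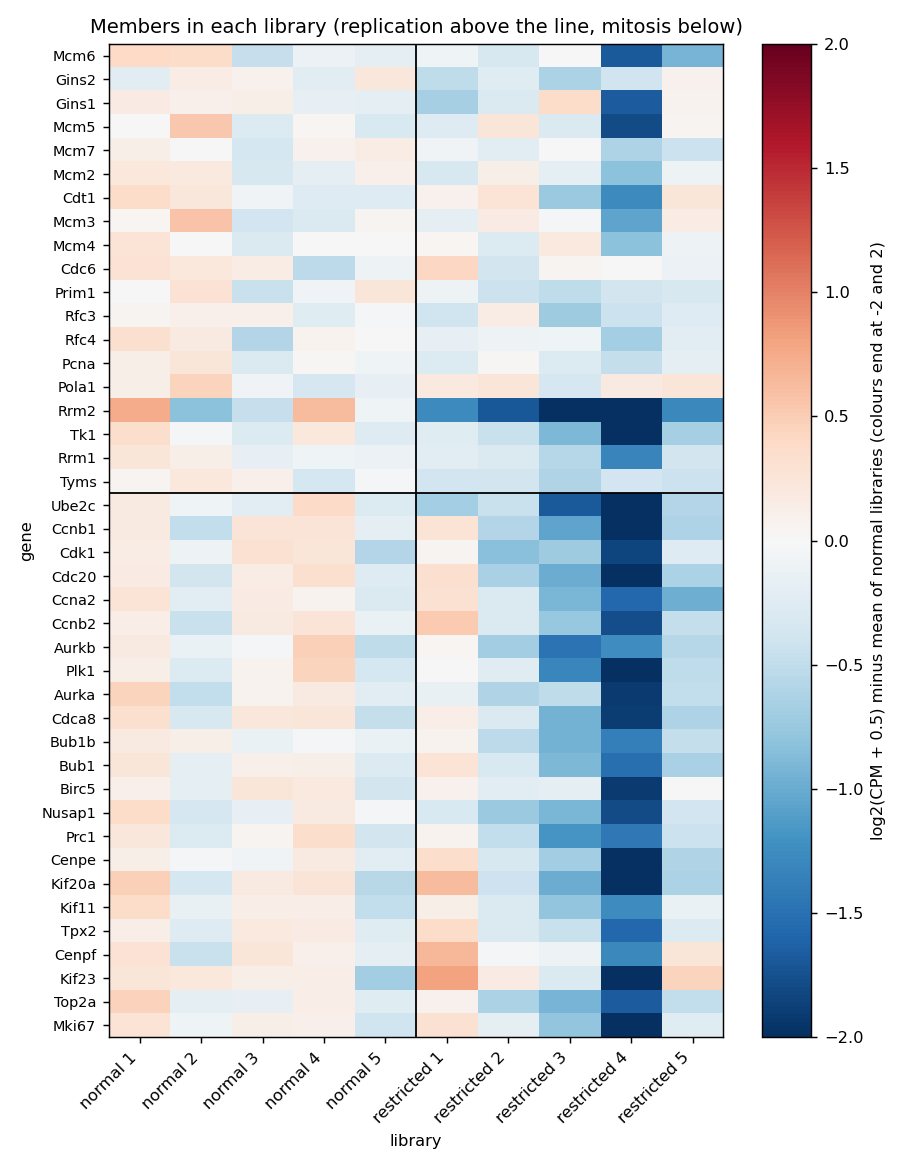
Each gene (rows, replication above the line) in each library (columns), as log2(CPM + 0.5) minus the mean of the normal libraries, with colours that end at −2 and 2. Restricted 4 is the darkest column, restricted 1 is near or above the normal level for mitosis genes, and Rrm2 is below the normal mean in all 5 restricted libraries.

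Levels between genes were compared with the authors' FPKM values, which correct for gene length. Pcna was the highest of the 42 in the normal group, at 15.1 ± 2.19 FPKM (SD, n = 5), followed by Rrm2 at 9.94 ± 4.81, Cdk1 at 8.55 ± 2.11, Tk1 at 8.05 ± 1.78 and Cdc20 at 6.97 ± 1.55 FPKM. The steps from Rrm2 to Cdk1, Tk1 and Cdc20 were smaller than their SDs, whereas Rfc4, the next, stood lower, at 4.75 ± 1.151 FPKM. The lowest were Cdc6, Gins2 and Kif23, at 0.375 ± 0.118, 0.369 ± 0.0626 and 0.225 ± 0.0603 FPKM. In the restricted group Pcna was again first, at 13.0 ± 2.61 FPKM, and Kif23 last, whereas Rrm2 ranked 13 at 2.58 ± 1.32 FPKM.

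Promoter class and change can be set side by side for the 35 genes with a window. The 9 genes with an E2F-type motif and no CHR had a median log2 fold change of −0.30, and the 11 with CHR and no E2F-type motif one of −0.63. The 6 with both stood at −0.30 and the 9 with neither at −0.52. Within each of these classes the range was wide, from −0.81 (Nusap1) to 0.00 (Cenpf) for CHR alone and from −0.54 (Mcm6) to 0.10 (Pola1) for E2F alone. All 9 genes of the first class are replication genes and all 11 of the second are mitosis genes. For these classes, promoter class and gene set therefore cannot be told apart.

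Other genes of the same pathways were also mostly negative. Of 46 further replication genes in the table, on 48 rows because Cdc45 and Pole3 have 2 each, 1 fell and 0 rose, with a median of −0.18 and 36 rows negative. Among all genes tested 2.22% were called lower. At an unadjusted p under 0.05, 8 of the 48 rows were lower and 2 higher. Of all 12367 genes tested, 9.93% were lower and 1256 genes were higher at that level. The gene that fell was Rpa3, a subunit of the protein that coats single-stranded DNA. It had 16.1, 15.1, 15.6, 17.2 and 14.9 CPM in normal 1 to 5 and 11.2, 9.55, 13.0, 12.3 and 10.03 CPM in restricted 1 to 5, without overlap. All restricted libraries lay below all normal ones for 4 of the 48 rows, beside 3.44% of all genes tested. The log2 fold change of Rpa3 was −0.49 ± 0.11 (adjusted p 0.0276 in edgeR), and it passed without normal 2 and without restricted 1, 3 or 4, but not without any of the other 6 libraries. Of 65 further mitosis genes, 59 were negative with a median of −0.37, and 0 passed in edgeR or limma-voom. At an unadjusted p under 0.05, 9 of the 65 were lower, beside 9.93% of all genes, and DESeq2 called Oip5, of centromere assembly, and Zwilch, of the kinetochore. Those names, and others given only under an alternative, were chosen after their values were seen. Without restricted 1, edgeR called 4 of the 65 lower: Nuf2, Mad2l1, Zwilch and Cdca3, beside the 1.94% of all genes given above.

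Genes that control entry into the cycle did not share the direction. Of 35 tested, 14 were negative, the median was 0.08, and 0 passed in edgeR or limma-voom. In edgeR 3 of the 35 were lower and 4 higher at an unadjusted p under 0.05. These counts are near the background, since 1228 of all 12367 genes tested were lower and 1256 higher at that level. DESeq2 called Ccne1, cyclin E1, lower and Cdc25a, the phosphatase that activates CDK2, higher, where it called 4.16% of all genes higher. Ccnd1, cyclin D1 of the response to growth signals, had 36.6 ± 14.2 and 53.9 ± 18.1 CPM (SD, n = 5; log2 fold change 0.56 ± 0.32, adjusted p 0.363). Cdkn1a, the inhibitor p21, had 19.6, 32.4, 13.7, 13.9 and 20.5 CPM in normal 1 to 5 and 63.6, 27.0, 23.0, 33.3 and 25.2 CPM in restricted 1 to 5. Its highest value was in restricted 1, the library with the highest mitosis genes of its group (0.78 ± 0.33, adjusted p 0.225). Myc, a growth factor-responsive transcription factor, had 31.5 ± 17.4 and 34.2 ± 21.4 CPM (adjusted p 0.924). E2f7 and E2f8, E2F repressors that are known in mouse to promote polyploid liver cells, were −0.84 ± 0.31 and −0.34 ± 0.24 (adjusted p 0.149 and 0.458), at 0.892 to 2.09 CPM on average. E2f1 and Foxm1 were not analysed here.

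Dividing cells in liver can be hepatocytes or other cells, and markers of other types moved between libraries. The 12 Kupffer cell markers found in the table, Csf1r and Cd5l among them, summed to 948 to 1246 CPM in the normal libraries and 1073 to 2743 CPM in the restricted ones, and all 12 had a positive log2 fold change. The sums of restricted 1 and restricted 3, 1073 and 1113 CPM, lay within the normal range. T and NK cell markers (8 in the table) summed to 5.46 to 15.0 and 10.8 to 53.7 CPM, and B and plasma cell markers (4 in the table) to 8.32 to 14.3 and 6.01 to 88.6 CPM. In these 3 lists 0 genes were called, and for each list the highest sum was in restricted 5, whose mitosis score was −0.42. The median log2 fold changes were 0.67 for Kupffer cell, 1.26 for T and NK cell and 1.39 for B and plasma cell markers. In edgeR 7 of 12, 4 of 7 tested and 2 of 4 were higher at an unadjusted p under 0.05. Of all 12367 genes tested, 1256 were higher at that level. Stellate cell markers (8 in the table) summed to 719 CPM in restricted 4, below the normal range of 1112 to 1456 CPM, and to 719 to 1969 CPM over the restricted libraries. Endothelial markers (7) ran from 452 to 492 and from 446 to 551 CPM, and erythroid markers (4) from 108 to 176 and from 93.4 to 113 CPM, with 1 of the 4 called lower and 1 higher. Of these 4 erythroid genes 3 had a positive log2 fold change (median 0.66), so their sum does not follow most of them. Cholangiocyte markers (5) ran from 12.7 to 18.5 and from 12.8 to 19.5 CPM, and fetal hepatocyte markers (4) from 219 to 694 and from 291 to 964 CPM. No marker found in the table was at 0 in all libraries. The part of these cell types in the change of the replication and mitosis genes was not tested.

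Restricted 5 set alone against the normal libraries gave medians of −0.21 for replication and −0.54 for mitosis genes, with 34 of 42 negative and 0 past the test in edgeR, where 1.37% of all genes were called lower. Without restricted 5 the medians were −0.35 and −0.64, and 40 of 42 were negative. With log2 CPM of Kdm5d as a covariate, which makes the diet change rest mainly on restricted 5, they were −0.22 and −0.53, with 33 negative and 0 passing. Mcm3, Mcm5, Cdt1, Gins1 and Gins2 were above 0 in restricted 5 and with the covariate, at 0.029 to 0.28. For restricted 1 to 4, diet and whatever goes with the absence of Kdm5d RNA, sex included, cannot be told apart.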

How the data were processed

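The data are 10 liver RNA libraries, 5 per group. Per the submitters' processing notes and the series' design text, the authors used bcl2fastq, fastp, HISAT2 and HTSeq on the rat build rn7. No source used here states versions, annotation or strand setting. The deposited raw count columns are whole-number counts per gene, and the FPKM columns are the authors' values per gene length and depth. The deposited fold change (a ratio), its log2 and the p-values come from a test of the authors that no source used here names.

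From the counts, edgeR 4.0.16 in R 4.3.3 (TMM scaling, filterByExpr with a minimum count of 10, robust quasi-likelihood test, two-sided, Benjamini-Hochberg over all genes tested) was fitted to all libraries. The filter removed 188 genes and left 12367. CPM values are TMM-scaled, scores use a prior count of 2, and floors of 3 counts and binomial intervals cover counting error only. The 42 genes, their role groups and the other lists were chosen with earlier results of these data known, so counts over them are descriptions.

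Named with full statistics were every gene called, 5 fixed genes (Mki67, Top2a, Pcna, Cdk1 and Ccnb1) and, in each role group, the genes with the smallest and largest p; of other lists, up to 6 genes called and 7 fixed ones. The test was repeated with DESeq2 1.42.0, with limma-voom (limma 3.58.1), with scaling by RLE or the upper quartile, unfiltered, with genes kept only at 1 CPM in at least 5 libraries, with a block for the replicate number, with log2(CPM + 0.5) of Kdm5d as covariate, and leaving out every library in turn. Restricted 5 alone against the normal libraries, and the spread without restricted 1 or 4, were added after the data were seen. Within groups, chi-square per degree of freedom between libraries was at least 21.2, so no library was a repeat of another.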

Additional observations from a re-analysis of the deposited data

Results flagged for a closer look

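In 90 groups of 5 libraries, the values of each of the 42 genes and of 3 scores were examined for a library far from the others, by the gap to its nearest neighbour over the whole range. The limit was 0.710. Chance flags about 1 in 20 groups, or 4.5 here, and 5 were found. Rfc4 had 3.35 CPM in restricted 4, with 4.80 CPM next. Birc5 had 0.919 CPM in restricted 4, with 4.10 CPM next, and the replication score was −1.11 there, with −0.42 next. Pola1 had 4.35 CPM in restricted 3, with 6.43 CPM next. Kif23 had 1.95 CPM in normal 5, with 3.81 CPM next.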

How the results depend on the processing

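The medians of replication and mitosis genes and their difference kept their sign under all 19 alternatives, at −0.37 to −0.18, −0.88 to −0.41 and 0.19 to 0.57. The count of genes called lower, 2 of 42, was 4 with DESeq2 and 0 with limma-voom, with the replicate block, with Kdm5d as a covariate and in restricted 5 alone, and 0 to 2 with 1 library left out. Further replication genes called lower were 2 with DESeq2, 0 with the replicate block, with Kdm5d as a covariate and in restricted 5 alone, and 0 to 2 with 1 library left out (1 otherwise). Further mitosis genes called lower were 2 with DESeq2, 1 in restricted 5 alone and 0 to 4 with 1 library left out. Of the cycle control genes, 1 was called lower with DESeq2 (0 to 1 with 1 library left out), and 1 higher with RLE scaling, with DESeq2 and in restricted 5 alone (0 to 1). Genes near 0 changed sign. With Kdm5d as a covariate Mcm3 was 0.12, Mcm5 0.071, Cdt1 0.28, Gins1 0.12, Gins2 0.13 and Birc5 0.028 (log2), and in restricted 5 alone the first 5 were 0.10, 0.029, 0.25, 0.078 and 0.10. With limma-voom Cdc6 was 0.015, Kif23 −0.24 and the log2 fold change of Cenpf −0.063. With the replicate block Kif23 was −0.15 and Cenpf −0.084, and with upper-quartile scaling Cenpf was −0.022. With 1 library left out Cdc6 ran from −0.20 to 0.12, Cdt1 from −0.37 to 0.015, Kif23 from −0.24 to 0.36 and Cenpf from −0.23 to 0.22. The causes were not tested. Same-numbered libraries deviated together with correlations of −0.19 to 0.12 and only number 1 matched best in both directions. The labels state no pairs and the main fit used none, but such correlations cannot exclude a shared litter or batch. The block changed Rrm2 to an adjusted p of 0.104 and Tyms to 0.102 in edgeR. FPKM order moved by at most 1 place with TMM-scaled CPM per kilobase. With the shorter E2F core, 93.8% of replication promoters, 68.4% of mitosis promoters and 45.7% of all promoters matched. TTTGAA alone left CHR at 68.4% of mitosis promoters, but at 6.25% of replication promoters and 17.1% of all promoters, and the intervals of the gene sets then did not overlap. Depth limits Gins1, Kif23, Cdc6 and Ube2c most, at counts down to 3, 6, 8 and 9.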
